A study of Mus musculus with 36 samples.

Results

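The genes described here are 40 genes of the contractile machinery and excitation of skeletal muscle, chosen by symbol from the 50833 genes counted in mouse embryonic forelimbs. They hold 7 myosin genes, 7 troponin genes, 6 genes of actin and the thin filament, 6 genes of the Z-disc, M-line, titin and desmin, 5 genes of sarcomere assembly and turnover, 5 genes of excitation and calcium handling, 3 acetylcholine receptor subunit genes and the muscle creatine kinase gene Ckm. All 40 symbols were found in the count table. RNA was measured in E12.5 embryos in 36 libraries, with 3 libraries for each of 6 genotypes in each of 2 tissues, the distal and the proximal forelimb. The genotypes were Del(CBS1), then Del(CBS1-2), then Del(CBS1-3), then Del(CBS1-4), then Del(CBS1-5), which are CRISPR/Cas9 deletions of CTCF binding sites at the HoxD gene cluster, and wild type (WT). CTCF is a DNA-binding protein that helps to set the boundaries of chromatin domains. Every sample carried the same strain label, B6CBAF1, and each came from the micro-dissected forelimb pair of an individual embryo. The labels do not say whether a deletion was carried on a single or on both chromosomes, nor how many founder lines gave each genotype. A CTCF site makes no transcript of its own, so no transcript count checks the genotype labels directly. Levels of the HoxD genes were not used here as an indirect check.

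Skeletal muscle contracts when myosin thick filaments pull on actin thin filaments inside the sarcomere. Troponin, sitting on the thin filament, opens the myosin-binding sites when calcium is bound. Acetylcholine receptors start the electrical signal, and a voltage sensor in the surface membrane then opens the calcium release channel of the sarcoplasmic reticulum. In the limb, muscle precursors migrate in from the somites and differentiate mainly in the proximal and middle limb, while the digits receive tendons and little muscle. Genes of this set are switched on during that differentiation by myogenic factors of the MyoD family, which bind E-boxes, and by MEF2 and SRF.

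The promoter windows of 4 genes are shown because these genes stand for 4 of the roles and are among the well-expressed members on which the tissue comparison turns: Mylpf, the fast regulatory myosin light chain; Tnnt1, slow skeletal troponin T; Actc1, cardiac alpha-actin, which embryonic skeletal muscle also uses; and Chrng, the fetal gamma subunit of the acetylcholine receptor. The windows run from 250 bases before to 50 bases after the RefSeq start, read 5′ to 3′ on the gene's strand, and come from the RefSeq table for GRCm38.p6. They lie at chr7:127211358-127211657 on the plus strand for Mylpf, chr7:4515926-4516225 on the minus strand for Tnnt1, chr2:114052826-114053125 on the minus strand for Actc1 and chr1:87205561-87205860 on the plus strand for Chrng. Capitals mark every E-box, the letters CANNTG.
Mylpf: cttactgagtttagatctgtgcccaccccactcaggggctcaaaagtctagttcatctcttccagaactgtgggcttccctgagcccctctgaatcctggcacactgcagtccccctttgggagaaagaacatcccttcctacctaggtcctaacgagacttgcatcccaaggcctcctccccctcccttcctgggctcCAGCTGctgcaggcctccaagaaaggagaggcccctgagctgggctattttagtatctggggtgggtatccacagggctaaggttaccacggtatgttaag
Tnnt1: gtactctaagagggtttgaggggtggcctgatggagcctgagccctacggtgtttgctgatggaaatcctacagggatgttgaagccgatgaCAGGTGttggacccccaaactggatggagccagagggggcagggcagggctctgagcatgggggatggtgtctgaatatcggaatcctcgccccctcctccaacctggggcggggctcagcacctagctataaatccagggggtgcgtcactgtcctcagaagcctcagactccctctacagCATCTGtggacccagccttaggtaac
Actc1: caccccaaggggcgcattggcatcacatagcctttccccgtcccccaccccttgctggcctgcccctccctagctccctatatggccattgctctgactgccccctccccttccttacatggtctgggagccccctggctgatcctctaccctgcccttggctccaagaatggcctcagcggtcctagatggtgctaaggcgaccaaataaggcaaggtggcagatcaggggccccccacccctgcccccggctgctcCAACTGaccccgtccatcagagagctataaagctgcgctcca
Chrng: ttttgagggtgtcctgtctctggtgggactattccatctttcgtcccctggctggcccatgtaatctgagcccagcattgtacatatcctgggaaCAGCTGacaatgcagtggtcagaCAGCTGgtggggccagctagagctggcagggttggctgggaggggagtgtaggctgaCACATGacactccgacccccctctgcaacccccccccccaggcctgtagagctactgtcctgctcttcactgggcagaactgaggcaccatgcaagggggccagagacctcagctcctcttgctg

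Counting from the start, with bases before it negative, the Mylpf E-box began at -51, the Tnnt1 E-boxes at -158 and 25, the Actc1 E-box at 9 and the Chrng E-boxes at -155, -132 and -75. The RefSeq table listed 36 windows for 33 of the 40 members. CANNTG was present in 88.9% of these windows and in 72.3% of all 32851 windows in the table, so that most promoters of any gene hold this short motif. CAGCTG, which is one form of CANNTG, was present in 50.0% of the member windows and in 16.3% of all windows. A MEF2 site was found in 13.9% of the member windows and 3.2% of all windows. A CArG box, the SRF motif, was found in 8.3% and 1.6%, a CATTCC motif in 33.3% and 14.7%, and TATAAA in 13.9% and 8.3%. Both strands were searched. These matches describe letters in a window and not bound sites.

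Library totals ran from 11062069 to 17727891 counts with a median of 14069935. The 40 genes together took 0.00507% to 0.0245% of the counts of distal libraries and 0.291% to 0.542% of the counts of proximal libraries, so distal values rest on far fewer reads. Levels below are in CPM, counts scaled to a common library size with edgeR's TMM factors, and levels compared between genes are the authors' FPKM, which divide by transcript length. The tissue is a bulk sample, in which fewer muscle cells and less muscle RNA per cell cannot be told apart. Where no source says whether the 3 libraries of a group came from separate litters, p-values measure the spread between these embryos.

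The distal and the proximal WT forelimb were compared first. All 40 genes fell in distal against proximal WT forelimbs by edgeR's quasi-likelihood test at a Benjamini-Hochberg adjusted p of 0.05, the largest adjusted p among them being 0.00123. Over all 14918 genes tested, 17.1% were lower in distal forelimbs by this test. The median log2 fold change of the 40 genes was -5.80, against 0.0049 over all genes tested. For every one of the 40 genes the 3 distal WT libraries lay below the 3 proximal WT libraries, a pattern that 23.3% of all tested genes showed. Members with few distal reads passed edgeR's filter on low counts through their proximal counts alone. They include Myoz2, Myot, Trim54, Cav3 and Ckm, with almost no distal reads. They also include Xirp1, Lmod3, Cacna1s, Myh8, Tnni2, Tnnc2, Myh7, Tnnt3, Chrnd and Chrng, at mean distal WT levels of 0.129 to 0.580 CPM. For all these members lower was in effect the only possible direction. The counts and the median above therefore include members whose direction was fixed in advance. The p-values given below for such members carry the same limit.

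Among the myosin genes, Myh3, the embryonic myosin heavy chain, had 5.88, 4.47 and 5.82 CPM in distal WT forelimbs, against 547, 539 and 525 CPM in proximal WT forelimbs. Its replicates lay close together in both tissues and its log2 fold change was -6.64 ± 0.09 (SE; edgeR adjusted p = 3.12e-09). The SE here and below is the log2 fold change divided by the square root of edgeR's F statistic. It understates the counting error of genes with few distal reads. Myh8, the perinatal heavy chain, fell by 7.93 ± 0.20 on the log2 scale (edgeR adjusted p = 4.26e-08). The light chain Mylpf fell by 5.55 ± 0.11 (edgeR adjusted p = 1.51e-08), and Mybph, a myosin-binding protein, fell by 6.86 ± 0.19 (edgeR adjusted p = 8.32e-08). Myl4, the embryonic and atrial essential light chain, had 1.162, 0.699 and 0.990 CPM in distal WT forelimbs, against 86.1, 87.3 and 63.9 CPM in proximal WT forelimbs. The median log2 fold change of the 7 myosin genes was -6.64.

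Troponin C binds calcium, troponin I inhibits and troponin T anchors the complex to tropomyosin, and slow and fast forms of all 3 subunits fell. Tnnc1, the slow and cardiac troponin C, fell by 6.01 ± 0.10 on the log2 scale (edgeR adjusted p = 3.45e-09), and its fast counterpart Tnnc2 fell by 6.92 ± 0.17 (edgeR adjusted p = 3.35e-08). Slow troponin I, Tnni1, fell by 5.77 ± 0.13 (edgeR adjusted p = 2.44e-08) and slow troponin T, Tnnt1, fell by 4.76 ± 0.15 (edgeR adjusted p = 1.33e-07). Tnnt2, cardiac troponin T, which embryonic skeletal muscle also makes, had 0.684, 0.699 and 1.42 CPM in distal WT forelimbs, against 58.8, 54.8 and 54.1 CPM in proximal WT forelimbs. The 7 troponin genes had a median log2 fold change of -5.77.

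Of the thin filament genes, Actc1 had 11.3, 4.89 and 6.68 CPM in distal WT forelimbs, against 686, 361 and 508 CPM in proximal WT forelimbs. Acta1, the skeletal alpha-actin, had 1.23, 1.75 and 1.36 CPM in distal WT forelimbs, against 136, 226 and 148 CPM in proximal WT forelimbs. The WT library with the most proximal Acta1 was the one with the least proximal Actc1, so both actins varied more between proximal embryos than Myh3 did, while the tissues stayed far apart. Actc1 fell by 6.09 ± 0.33 (edgeR adjusted p = 3.78e-06) and Acta1 fell by 6.87 ± 0.26 (edgeR adjusted p = 5.16e-07). Neb, nebulin, which runs along the thin filament, fell by 5.63 ± 0.08 (edgeR adjusted p = 3.12e-09), and Lmod3, a leiomodin that helps actin filaments to form, fell by 7.002 ± 0.25 (edgeR adjusted p = 3.26e-07).

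Ttn encodes titin, the spring that spans the sarcomere from Z-disc to M-line. It had 4.03, 5.31 and 5.94 CPM in distal WT forelimbs, against 385, 344 and 361 CPM in proximal WT forelimbs, a log2 fold change of -6.15 ± 0.12 (edgeR adjusted p = 1.08e-08). Des, desmin, the muscle intermediate filament, had 1.299, 2.03 and 2.54 CPM in distal WT forelimbs, against 72.3, 63.7 and 65.9 CPM in proximal WT forelimbs, a log2 fold change of -5.09 ± 0.17 (edgeR adjusted p = 2.17e-07). Actn2, the alpha-actinin of the Z-disc, fell by 6.34 ± 0.10 (edgeR adjusted p = 3.34e-09), while Myom1, the M-line protein myomesin, fell by 3.24 ± 0.12 (edgeR adjusted p = 3.26e-07). Myoz2, a Z-disc protein that binds calcineurin, had 0 counts over the 3 distal WT libraries and 450 over the 3 proximal ones. Against a floor of 3 counts over the group it was at least 155-fold lower in distal WT forelimbs. Myot, myotilin, had 2 counts over the distal and 382 over the proximal WT libraries.

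The assembly genes fell as the structural genes did. Klhl41, an adaptor of the kelch family, fell by 5.12 ± 0.12 (edgeR adjusted p = 2.55e-08), Smyd1, a muscle methyltransferase needed for sarcomere assembly, fell by 5.69 ± 0.14 (edgeR adjusted p = 3.75e-08), and Unc45b, a myosin chaperone, fell by 5.11 ± 0.20 (edgeR adjusted p = 6.46e-07). Trim54, a ubiquitin ligase of the sarcomere, had 1 count over the distal and 172 over the proximal WT libraries. Ckm, the muscle creatine kinase that buffers ATP, had 1 count over the distal and 48 over the proximal WT libraries, the lowest proximal level of the 40 genes at 0.469 FPKM.

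Of the excitation genes, Cacna1s, the voltage sensor of the surface membrane, had 0.137, 0.210 and 0.124 CPM in distal WT forelimbs, against 20.7, 23.4 and 18.1 CPM in proximal WT forelimbs, a log2 fold change of -6.99 ± 0.24 (edgeR adjusted p = 3.08e-07). The distal values of Cacna1s rest on few reads, so this SE is too small, as it is for Myh8, Tnnc2 and Lmod3. Ryr1, the calcium release channel that this sensor opens, had 16.9, 23.0 and 23.3 CPM in distal WT forelimbs, against 105, 101 and 107 CPM in proximal WT forelimbs, a log2 fold change of -2.31 ± 0.12 (edgeR adjusted p = 2.48e-06). Ryr1 had the least negative fold change of the 40 genes, and Tmod1, which caps thin filaments, Trim63, another ubiquitin ligase, and Myom1 followed at -2.84, -3.07 and -3.24. Atp2a1, the fast calcium pump, fell by 5.42 ± 0.10 (edgeR adjusted p = 6.58e-09) and Casq2, a calsequestrin that stores calcium, fell by 5.73 ± 0.20 (edgeR adjusted p = 3.17e-07). Cav3, the muscle caveolin, had 2 counts over the distal and 229 over the proximal WT libraries.

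All 3 receptor subunits fell. Chrna1, the alpha subunit that binds acetylcholine, had 1.23, 1.47 and 1.24 CPM in distal WT forelimbs, against 37.4, 28.6 and 34.0 CPM in proximal WT forelimbs, a log2 fold change of -4.67 ± 0.17 (edgeR adjusted p = 3.24e-07). Chrng fell by 5.82 ± 0.15 (edgeR adjusted p = 4.85e-08) and Chrnd, the delta subunit, fell by 4.23 ± 0.30 (edgeR adjusted p = 1.76e-05).

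**Figure D1:**
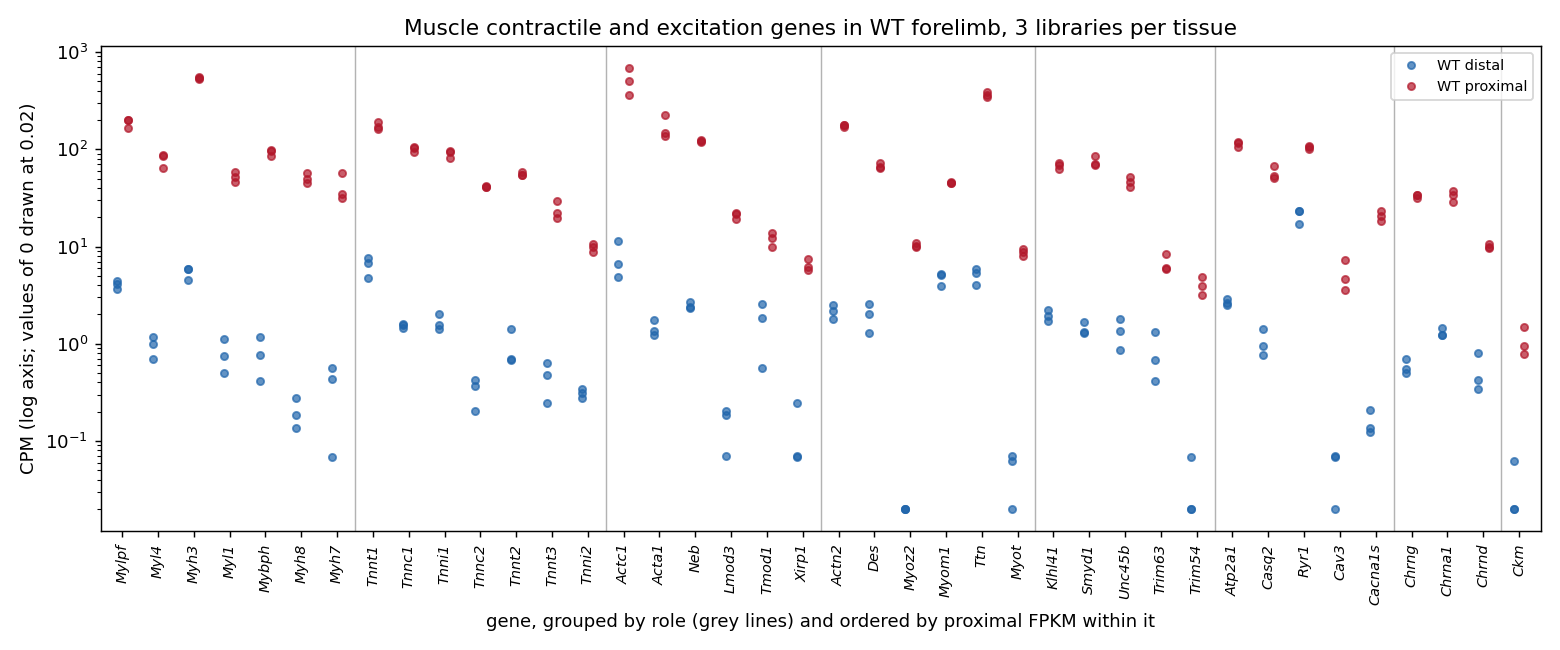
Levels of the 40 genes in WT forelimbs, in CPM on a log axis, by role, with a point for each library. Distal points lie below proximal points for every gene, and Ryr1 shows the smallest gap.

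Per unit of length, the most abundant of the 40 genes in WT forelimbs were Actc1 at 3.57 FPKM distally and 236 FPKM proximally, Mylpf at 4.29 and 201 FPKM, and Tnnt1 at 4.59 and 121 FPKM. These were the 3 members above 100 FPKM in proximal WT forelimbs, where 21 members lay above 10 FPKM. In distal WT forelimbs 5 members lay above 1 FPKM. Ryr1 was the member whose place changed most plainly: it ranked sixth in distal WT forelimbs at 0.885 FPKM and 30th in proximal WT forelimbs at 4.44 FPKM, a comparison of ranks made after the values were seen. Ttn was at 3.37 FPKM and Neb at 13.1 FPKM in proximal WT forelimbs.

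The tissue difference was then measured in each deletion genotype. All tested members fell in distal against proximal forelimbs by edgeR's adjusted p in each of the 5 genotypes: 39 of 39 in Del(CBS1), 40 of 40 in Del(CBS1-2), 39 of 39 in Del(CBS1-3), 40 of 40 in Del(CBS1-4) and 40 of 40 in Del(CBS1-5). The share of all tested genes that were lower was 19.7% in Del(CBS1), 25.9% in Del(CBS1-2), 18.3% in Del(CBS1-3), 20.8% in Del(CBS1-4) and 21% in Del(CBS1-5). The members' median log2 fold change was -5.31 in Del(CBS1), -4.94 in Del(CBS1-2), -6.33 in Del(CBS1-3), -5.20 in Del(CBS1-4), -6.52 in Del(CBS1-5) and -5.80 in WT. For each of the 40 genes all 18 distal libraries lay below all 18 proximal libraries. As in WT, members with few distal reads were tested through their proximal counts and could in effect only be lower.

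The summed level of the 40 genes was taken for each library, and it is weighted to the most abundant of them. In distal WT forelimbs Ryr1, which had the smallest tissue difference, averaged 21.05 CPM of a mean sum of 84.6 CPM. Over the proximal libraries Myh3, Actc1 and Ttn averaged 575, 569 and 395 CPM. The sum is therefore not an even measure of muscle RNA. In distal forelimbs the sum was 82.7, 185 and 70.6 CPM in Del(CBS1), 248, 145 and 140 CPM in Del(CBS1-2), 65.4, 127 and 52.4 CPM in Del(CBS1-3), 107, 84.0 and 221 CPM in Del(CBS1-4), 64.8, 51.2 and 77.0 CPM in Del(CBS1-5), and 78.6, 85.3 and 89.9 CPM in WT. All 3 distal Del(CBS1-2) libraries lay above the WT range and all 3 distal Del(CBS1-5) libraries lay below it, while the other 3 deletion genotypes had libraries inside it or on both sides of it. In proximal forelimbs the sum was 3974, 3051 and 3912 CPM in Del(CBS1), 4999, 4650 and 5048 CPM in Del(CBS1-2), 4008, 5426 and 3485 CPM in Del(CBS1-3), 3539, 3764 and 4869 CPM in Del(CBS1-4), 2946, 3645 and 3504 CPM in Del(CBS1-5), and 3881, 3537 and 3482 CPM in WT. Only the 3 proximal Del(CBS1-2) libraries all lay outside the WT range on the same side.

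**Figure D2:**
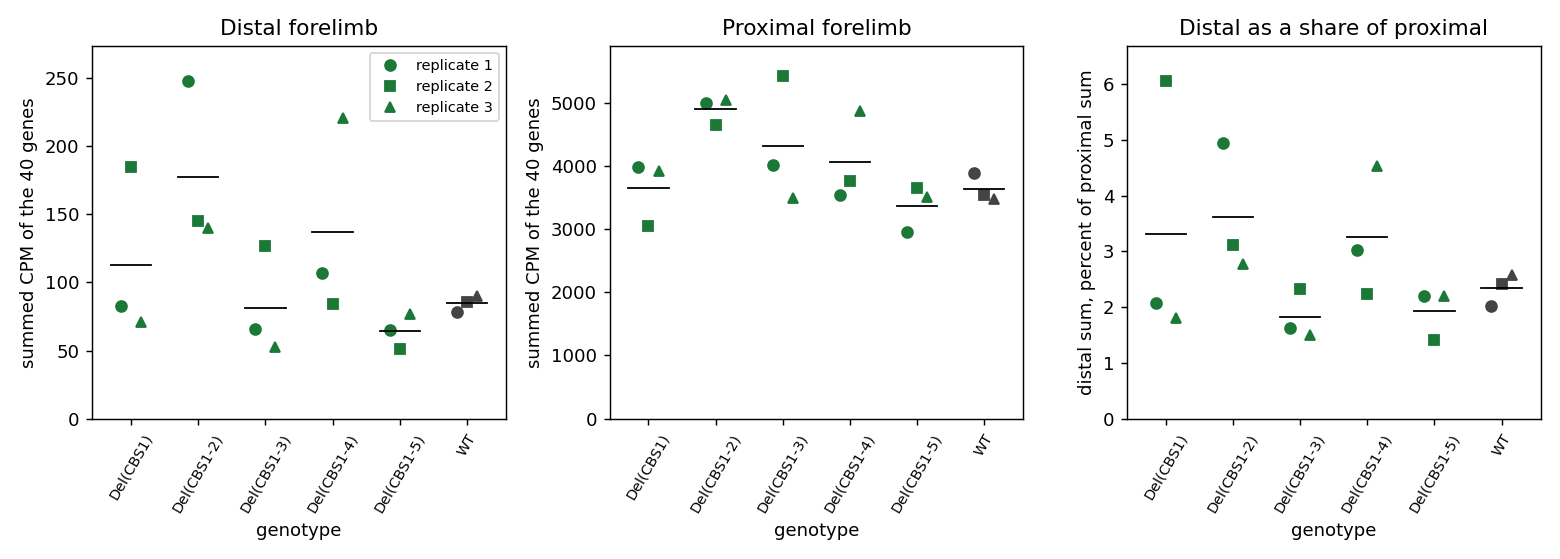
Summed CPM of the 40 genes in each library, by genotype, for the distal and the proximal forelimb, with the distal sum as a percentage of the proximal one at the right. Symbols are libraries and bars their means, and the axes start at 0. The Del(CBS1-2) points, at 140 to 248 CPM distally and 4650 to 5048 CPM proximally, lie above all WT points in both tissues.

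The distal sum as a percentage of the proximal sum of the same embryo number was 2.08%, 6.06% and 1.8% in Del(CBS1), 4.95%, 3.12% and 2.77% in Del(CBS1-2), 1.63%, 2.33% and 1.5% in Del(CBS1-3), 3.02%, 2.23% and 4.54% in Del(CBS1-4), 2.2%, 1.41% and 2.2% in Del(CBS1-5), and 2.02%, 2.41% and 2.58% in WT. The Del(CBS1-2) percentages all lay above the WT ones, and those of the other genotypes did not.

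Each deletion was then compared with WT within a tissue. Of the 10 comparisons, 1 gave a called member, Tnnt3 in proximal Del(CBS1-2) forelimbs. Tnnt3 is the fast skeletal troponin T gene (ENSMUSG00000061723, chromosome 7, 142498835 to 142516008 on the plus strand of mm10). It had 45.8, 44.5 and 37.1 CPM in proximal Del(CBS1-2) forelimbs, against 19.8, 29.1 and 22.3 CPM in proximal WT forelimbs. The groups did not overlap, the means were 42.5 ± 4.67 and 23.8 ± 4.81 CPM (SD, n = 3 each), and the log2 fold change was 0.83 ± 0.16 (SE; edgeR adjusted p = 0.0224). The call was lost without WT library 1 or 3, or without Del(CBS1-2) library 1 or 2, with edgeR adjusted p between 0.0765 and 0.126. Over all tested genes 0.721% were called in this comparison. DESeq2 called 6 of the 40 members and limma on the FPKM called 1, while edgeR with no filter on low counts called 29. The share of 0.721% does not apply to these alternatives, and their shares of all genes called are not given here.

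Below the adjusted threshold, the proximal Del(CBS1-2) values lay above WT for most of the set. Of the 40 members, 39 had a log2 fold change above 0, with a median of 0.41 against -0.0026 over all tested genes. An unadjusted edgeR p under 0.05 with a higher value was found for 26 of the 40, against 9.78% of all tested genes, and 34 of the 40 had all 3 Del(CBS1-2) libraries above all 3 WT libraries, against 13.5% of all tested genes. Without WT library 3 the count at unadjusted p was 16, and without each other library 19 to 27. In several genotypes the members rose and fell together between libraries, as given further below. These counts over members, and those for the other comparisons with WT, are therefore not counts of independent genes. All 7 myosin genes, all 7 troponin genes, 5 of 6 thin filament genes, all 6 Z-disc genes and all 3 receptor subunits were among those 34, with 4 of 5 excitation genes, 2 of 5 assembly genes and not Ckm. Myh3 had 728, 662 and 771 CPM in proximal Del(CBS1-2) forelimbs, against 547, 539 and 525 CPM in proximal WT forelimbs. Cacna1s had 31.9, 31.0 and 31.8 CPM in proximal Del(CBS1-2) forelimbs, against 20.7, 23.4 and 18.1 CPM in proximal WT forelimbs. For both genes the groups did not overlap. Des had 88.1, 92.8 and 95.6 CPM in proximal Del(CBS1-2) forelimbs, against 72.3, 63.7 and 65.9 CPM in proximal WT forelimbs. Ttn had 487, 425 and 499 CPM in proximal Del(CBS1-2) forelimbs, against 385, 344 and 361 CPM in proximal WT forelimbs. Again the groups were apart, but Acta1 overlapped, with 201, 192 and 205 CPM in proximal Del(CBS1-2) forelimbs, against 136, 226 and 148 CPM in proximal WT forelimbs.

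Distal Del(CBS1-2) forelimbs had no called member among the 34 tested by edgeR, against 10.5% of all tested genes called in either direction. The other 6 members, Xirp1, Myoz2, Myot, Trim54, Cav3 and Ckm, had too few distal counts to be tested. By unadjusted edgeR p under 0.05, 18 of the 34 were higher, against 12.4% of all tested genes. DESeq2 called 1 member, limma called 0, and edgeR with no filter on low counts called 21, with no share of all genes given beside them. The count of 18 was 3 without Del(CBS1-2) library 1, 10 without WT library 1 and 9 without WT library 3, and 12 to 20 without each other library. Del(CBS1-2) library 1 was the highest of its genotype for 30 of the 34 members, where it was the highest for 35.1% of all tested genes. The 3 Del(CBS1-2) libraries lay above the 3 WT libraries for 25 of the 34, against 16.8% of all tested genes, and the median log2 fold change was 1.19 against -0.0037, with 0.838 to 1.39 when 1 library was left out. The 2 tested members of smallest p were Tnnt1 at 1.10 ± 0.36 (edgeR adjusted p = 0.059) and Myom1 at 0.54 ± 0.18 (edgeR adjusted p = 0.0687). Tnnt1 had 17.1, 14.2 and 10.6 CPM in distal Del(CBS1-2) forelimbs, against 4.79, 7.69 and 6.74 CPM in distal WT forelimbs. Myh3 had 27.8, 10.9 and 10.7 CPM in distal Del(CBS1-2) forelimbs, against 5.88, 4.47 and 5.82 CPM in distal WT forelimbs, and Del(CBS1-2) library 1 stood above the other two. Ryr1 overlapped, with 20.6, 21.6 and 23.5 CPM in distal Del(CBS1-2) forelimbs, against 16.9, 23.0 and 23.3 CPM in distal WT forelimbs.

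**Figure D3:**
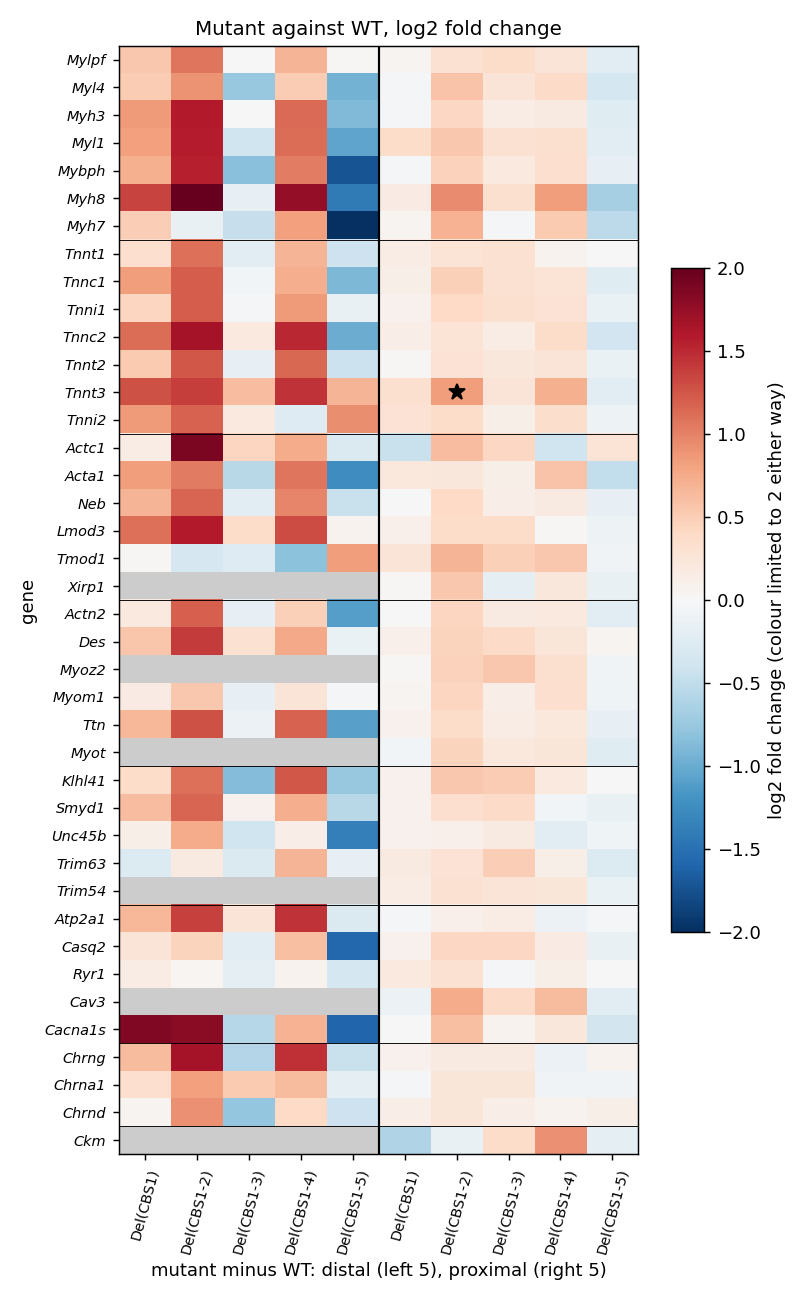
Log2 fold change of each of the 40 genes in each deletion genotype against WT, with distal forelimbs at the left, proximal forelimbs at the right and genes ordered by role. A star marks the called gene and grey marks genes not tested. The Del(CBS1-2) columns hold mostly positive values, with medians of 1.19 distally and 0.41 proximally. The Del(CBS1-4) medians were 0.75 and 0.24. The Del(CBS1-5) columns hold mostly negative values, with medians of -0.45 and -0.15.

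Del(CBS1-5) had negative median log2 fold changes in both tissues. They were smaller in size than the positive medians of Del(CBS1-4), 0.75 distally and 0.24 proximally. No member was called by edgeR, DESeq2 or limma in either tissue, while 0.0651% of all tested genes were called distally and 0.0696% proximally by edgeR. In distal forelimbs 29 of 34 members had a log2 fold change under 0, with a median of -0.45, and 11 of 34 had all Del(CBS1-5) libraries below all WT libraries, against 6.13% of all tested genes. Unadjusted edgeR p was under 0.05 with a lower value for 1 of the 34, against 7.1% of all tested genes. In proximal forelimbs 35 of 40 were under 0, with a median of -0.15, and 8 of 40 did not overlap, against 5.62% of all tested genes. By unadjusted edgeR p under 0.05, 3 of the 40 were lower, against 3.75% of all tested genes. When 1 library was left out, the counts at unadjusted p in either direction ran from 0 to 4 distally and from 0 to 5 proximally. Of the members of smallest p, Tnnc2 was at -0.38 ± 0.15 (edgeR adjusted p = 0.705) and Acta1 at -0.50 ± 0.22 (edgeR adjusted p = 0.763) proximally, and Ryr1 at -0.35 ± 0.13 (edgeR adjusted p = 0.271) distally. Ryr1 had 17.3, 13.2 and 19.3 CPM in distal Del(CBS1-5) forelimbs, against 16.9, 23.0 and 23.3 CPM in distal WT forelimbs, so the groups overlapped. Myh7, the slow heavy chain, had 0, 0.0689 and 0 CPM in distal Del(CBS1-5) forelimbs, against 0.0684, 0.559 and 0.433 CPM in distal WT forelimbs, which is too few counts for a fold.

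Del(CBS1-4) had no member called by edgeR or limma in either tissue, and DESeq2 called 0 distally and 1 proximally. By edgeR 0.0846% of all tested genes were called distally and 0% proximally. The members' median log2 fold change was 0.75 distally and 0.24 proximally. It ran from 0.195 to 1.09 distally and from 0.0795 to 0.328 proximally when 1 library was left out. Unadjusted edgeR p was under 0.05 with a higher value for 5 of 34 members distally, against 8.12% of all tested genes, and for 9 of 40 proximally, against 6.87%. The distal count was 0 without Del(CBS1-4) library 3, 12 without Del(CBS1-4) library 2, 3 without WT library 1 and 2 without WT library 3. The proximal count was 1 without Del(CBS1-4) library 3, 17 without Del(CBS1-4) library 1 and 4 without WT library 3. Tnnt3 again had the smallest proximal p, with 34.1, 35.0 and 48.4 CPM in proximal Del(CBS1-4) forelimbs, against 19.8, 29.1 and 22.3 CPM in proximal WT forelimbs. The groups did not overlap, and the log2 fold change was 0.72 ± 0.16 (edgeR adjusted p = 0.168). Without WT library 2 the comparison called 1 member. Myh8 was at 0.84 ± 0.29 (edgeR adjusted p = 0.23) proximally. In distal Del(CBS1-4) forelimbs Atp2a1 was at 1.45 ± 0.50 (edgeR adjusted p = 0.172) and Tnnt3 at 1.45 ± 0.52 (edgeR adjusted p = 0.188). Atp2a1 had 5.43, 4.17 and 12.4 CPM in distal Del(CBS1-4) forelimbs, against 2.53, 2.87 and 2.60 CPM in distal WT forelimbs, with all mutant libraries above WT and library 3 far above the others.

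Del(CBS1-3) had no called member by edgeR or limma, and DESeq2 called 0 distally and 1 proximally. By edgeR 0.00651% of all tested genes were called distally and 0.0696% proximally. The members' median log2 fold change was -0.16 distally and 0.25 proximally. It ran from -0.828 to 0.129 distally and from 0.0591 to 0.34 proximally when 1 library was left out. Unadjusted edgeR p was under 0.05 for 0 of 34 members distally, against 13.9% of all tested genes, and with a higher value for 9 of 40 proximally, against 6.03%. The proximal count was 1 without Del(CBS1-3) library 2, 16 without Del(CBS1-3) library 3 and 5 without WT library 3. Klhl41 had the smallest p in both tissues with opposite signs: it was at -0.86 ± 0.56 distally (edgeR adjusted p = 0.507) and 0.50 ± 0.14 proximally (edgeR adjusted p = 0.148). It had 90.2, 118 and 79.6 CPM in proximal Del(CBS1-3) forelimbs, against 62.2, 72.1 and 69.2 CPM in proximal WT forelimbs. Smyd1 was at 0.38 ± 0.13 proximally (edgeR adjusted p = 0.239) and Ryr1 at -0.20 ± 0.13 distally (edgeR adjusted p = 0.515).

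Del(CBS1) had no member called by edgeR, DESeq2 or limma in either tissue. By edgeR 0.0325% of all tested genes were called distally and 0.0443% proximally. The members' median log2 fold change was 0.55 distally and 0.08 proximally. It ran from -0.213 to 0.877 distally and from 0.0146 to 0.189 proximally when 1 library was left out. Unadjusted edgeR p was under 0.05 for 1 of 34 members distally and 1 of 40 proximally, both higher, against 3.95% and 3.11% of all tested genes, and the counts ran from 0 to 5 in both tissues when 1 library was left out. Distally Tnnt3 was at 1.28 ± 0.53 (edgeR adjusted p = 0.434), and proximally Ryr1 was at 0.19 ± 0.07 (edgeR adjusted p = 0.569) and Tnnt3 at 0.33 ± 0.17 (edgeR adjusted p = 0.735). Cacna1s had 0, 1.52 and 0.192 CPM in distal Del(CBS1) forelimbs, against 0.137, 0.210 and 0.124 CPM in distal WT forelimbs. Its log2 fold change of 1.85 ± 1.11 (edgeR adjusted p = 0.632) rested on Del(CBS1) library 2 and was -0.55 without it.

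Whether the difference from WT itself differed between the 2 tissues was tested as an interaction over all 36 libraries. No member was called in any of the 5 genotypes by edgeR, DESeq2 or limma, and edgeR called 0% of all tested genes in Del(CBS1), 0.0491% in Del(CBS1-2), 0.00614% in Del(CBS1-3), 0.0184% in Del(CBS1-4) and 0% in Del(CBS1-5). Unadjusted edgeR p was under 0.05 for 1 member in Del(CBS1), 7 in Del(CBS1-2), 3 in Del(CBS1-3), 5 in Del(CBS1-4) and 3 in Del(CBS1-5), against 2.12%, 11.1%, 3.94%, 6.11% and 5.93% of all tested genes. When 1 library was left out, these counts ran from 0 to 7 in Del(CBS1), 4 to 13 in Del(CBS1-2), 1 to 6 in Del(CBS1-3), 2 to 12 in Del(CBS1-4) and 1 to 3 in Del(CBS1-5). With no filter on low counts edgeR called 4, 19, 2, 9 and 3 members in the same order, with no share of all genes given beside them. Atp2a1 had a difference of 1.301 ± 0.45 (edgeR adjusted p = 0.238) between the distal and the proximal log2 fold change in Del(CBS1-2) and of 1.58 ± 0.45 (edgeR adjusted p = 0.45) in Del(CBS1-4). It had 8.09, 7.70 and 5.25 CPM in distal Del(CBS1-2) forelimbs against the distal WT values above. In proximal forelimbs it had 119, 116 and 130 CPM in Del(CBS1-2) and 93.0, 98.4 and 123 CPM in Del(CBS1-4), against 120, 106 and 115 CPM in WT, with overlap. Chrng had a difference of 1.59 ± 0.55 in Del(CBS1-4) (edgeR adjusted p = 0.584), Klhl41 of -1.36 ± 0.58 in Del(CBS1-3) (edgeR adjusted p = 1), and Ryr1 of -0.34 ± 0.15 in Del(CBS1-5) (edgeR adjusted p = 0.797). Cacna1s had a difference of 1.86 ± 0.98 in Del(CBS1) (edgeR adjusted p = 1), again resting on distal library 2. Myoz2 was at 0 in the 3 distal WT libraries and at 0.282, 0.228 and 0.563 CPM in distal Del(CBS1-2) forelimbs, so that no fold is given. Xirp1, an actin-binding protein, had 0 CPM in all distal Del(CBS1-5) libraries, against 0.0684, 0.0699 and 0.248 CPM in distal WT forelimbs. In no genotype did a member leave the WT range with all 3 libraries in opposite directions in the 2 tissues.

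In proximal forelimbs the residual standard deviation of log2 CPM between libraries of a genotype had a median of 0.231 over the 40 members and 0.136 over all tested genes. It was widest for Ckm at 0.645, Myh7 at 0.446, Myh8 at 0.441 and Xirp1 at 0.403, and narrowest for Ryr1 at 0.098, Chrng at 0.114 and Atp2a1 at 0.144. By role, the thin filament genes had a median of 0.320, the myosin genes 0.289 and the receptor subunits 0.167. In distal forelimbs the median was 0.775 over the tested members and 0.131 over all tested genes, with Ryr1 lowest at 0.172 and Myom1 next at 0.210. This spread includes counting error, which is larger at the few reads of most distal members, and genes were not matched by level.

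Proximal Del(CBS1-3) library 2 was the highest of its genotype for 40 of 40 members, where it was the highest for 36.7% of all tested genes. Proximal Del(CBS1-4) library 3 was likewise the highest for 40 of 40 members and for 34.3% of all tested genes. Proximal Del(CBS1) library 2 was the lowest for 37 of 40 members and for 35.3% of all tested genes, and proximal Del(CBS1-5) library 1 for 33 of 40 and 31.1%. These libraries therefore set much of the spread within their genotypes. The distal forelimbs of the same embryo numbers did not always follow. Distal Del(CBS1-3) library 2 and distal Del(CBS1-4) library 3 were the highest for 29 and 31 of 34 members, but distal Del(CBS1) library 2 was the highest for 33 of 34, opposite to its proximal partner. Elsewhere the highest values were divided between libraries: the 3 proximal libraries were the highest for 18, 3 and 19 of 40 members in Del(CBS1-2) and for 19, 15 and 6 of 40 in WT, although Del(CBS1-2) library 2 was the lowest for 30 of 40.

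**Figure D4:**
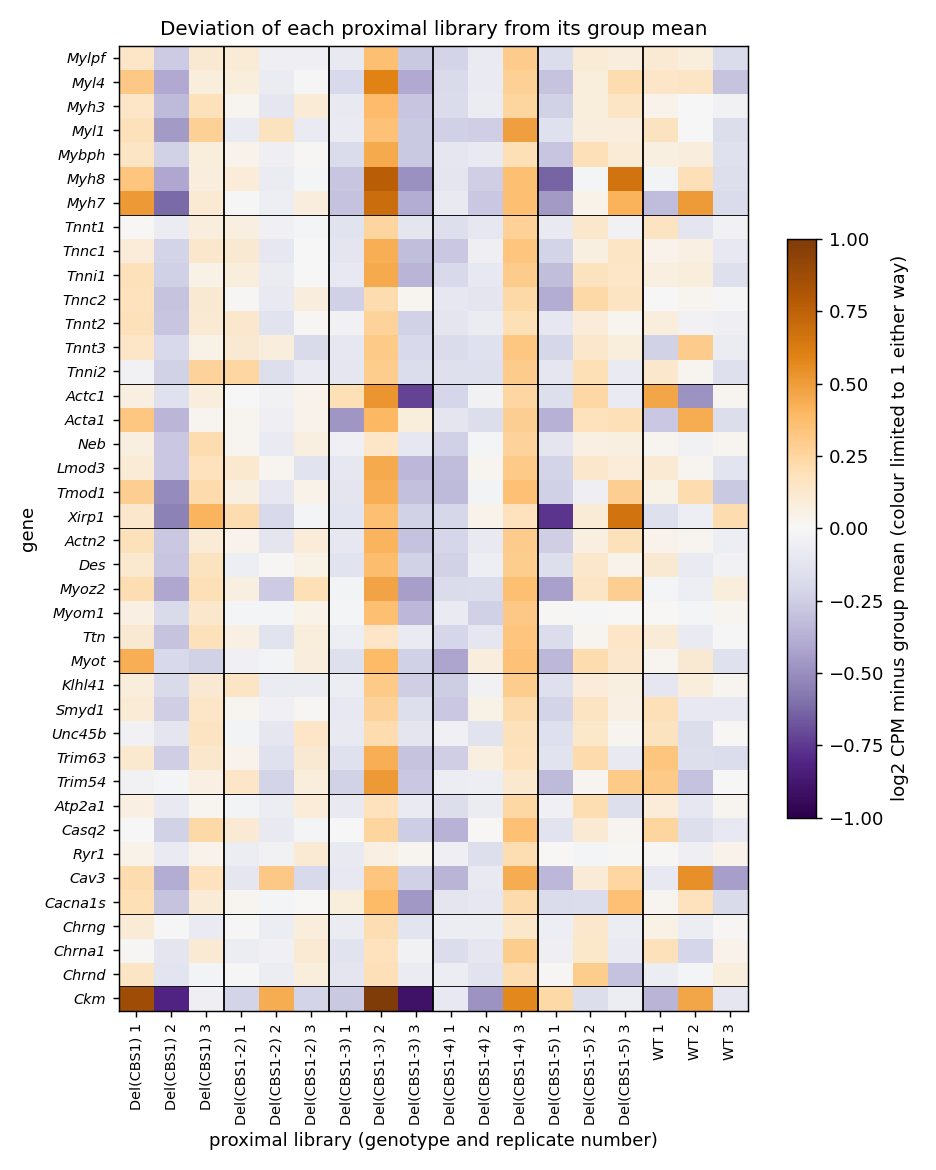
Deviation of each member from its genotype mean in each proximal library, in log2 CPM as colour, with a row for each of the 40 genes and a column for each library. In Del(CBS1-3) library 2 and Del(CBS1-4) library 3 all 40 genes are at the highest value of their genotype.

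Markers of other limb regions and tissues varied with these libraries. The summed level of 10 distal limb tip genes, among them Msx1, Lhx9 and Hoxa13, was 619, 661 and 554 CPM in proximal Del(CBS1) libraries, 424, 502 and 470 CPM in Del(CBS1-2), 451, 369 and 538 CPM in Del(CBS1-3), 773, 707 and 414 CPM in Del(CBS1-4), 608, 527 and 634 CPM in Del(CBS1-5), and 502, 836 and 545 CPM in WT. The 2 proximal libraries with every member at its highest, Del(CBS1-3) library 2 and Del(CBS1-4) library 3, had the least of these tip genes within their genotypes. Del(CBS1) library 2, the lowest for 37 of 40 members, had the most. Del(CBS1-5) library 1, the lowest for 33 of 40, did not, at 608 CPM against 634 CPM in library 3. WT library 2 had the most tip genes in WT, but its sum of the 40 genes, 3537 CPM, lay between 3881 and 3482 CPM. The Del(CBS1-2) and WT sums overlapped only at their border, 424 to 502 against 502 to 836 CPM. In distal libraries the summed level of 10 proximal boundary genes, among them Meis1, Meis2 and Shox2, was 372, 345 and 340 CPM in Del(CBS1-2) and 342, 333 and 328 CPM in WT. In Del(CBS1-4) it was 333, 327 and 388 CPM, with the most in the library that also had the highest sum of the 40 genes. Boundary gene sums of the other deletion genotypes are not given here. The summed level of tendon and connective tissue genes was 6229, 5776 and 5571 CPM in proximal Del(CBS1-2) and 4258, 4652 and 4298 CPM in proximal WT forelimbs. Distally it was 2061, 1893 and 1794 CPM in Del(CBS1-2) and 1623, 1677 and 1556 CPM in WT. Tendon genes also lay above WT in Del(CBS1-4), at 5368, 4760 and 6447 CPM proximally and 1924, 1774 and 2273 CPM distally. Other lists in Del(CBS1-2) lay above WT as well. Cartilage genes summed to 4302 to 4366 CPM in proximal Del(CBS1-2) and 3321 to 3544 CPM in proximal WT forelimbs, and to 2658 to 2740 CPM in distal Del(CBS1-2) and 1950 to 2192 CPM in distal WT forelimbs. Epidermis genes summed to 453 to 483 CPM in proximal Del(CBS1-2) and 300 to 429 CPM in proximal WT forelimbs, and to 548 to 649 CPM in distal Del(CBS1-2) and 449 to 471 CPM in distal WT forelimbs. In proximal forelimbs endothelial genes summed to 414 to 443 CPM in Del(CBS1-2) and 362 to 374 CPM in WT, macrophage genes to 95.4 to 110 CPM in Del(CBS1-2) and 74.6 to 86.3 CPM in WT, and smooth muscle genes to 437 to 454 CPM in Del(CBS1-2) and 392 to 418 CPM in WT. Erythroid genes lay below WT, at 1810 to 1831 CPM in proximal Del(CBS1-2) and 1889 to 2461 CPM in proximal WT forelimbs, and at 2127 to 2273 CPM in distal Del(CBS1-2) and 2533 to 3539 CPM in distal WT forelimbs. The higher sums in Del(CBS1-2) were thus not found for muscle genes alone. The part of the dissection border and of these tissues in the muscle values was not tested. The 6 genes listed for cardiac muscle, the other striated muscle, summed to at most 16.6 CPM in any library, with Nppa at 0 in all 36 and Nkx2-5 at 0 in WT.

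Muscle uses slow and fast, or embryonic and later, forms of the same protein, and a ratio within a pair is not moved by a change that scales both genes alike. The pairs were chosen after the values were seen, and the ratios are descriptions of FPKM in proximal forelimbs. Fast to slow troponin T, Tnnt3 to Tnnt1, was 0.209, 0.223 and 0.198 in Del(CBS1-2), 0.204, 0.223 and 0.211 in Del(CBS1-4), and 0.113, 0.172 and 0.123 in WT. All 6 libraries of these 2 genotypes lay above the WT range. Perinatal to embryonic heavy chain, Myh8 to Myh3, was 0.141, 0.137 and 0.123 in Del(CBS1-2), 0.152, 0.129 and 0.157 in Del(CBS1-4), 0.0491, 0.0604 and 0.0936 in Del(CBS1-5), and 0.0878, 0.105 and 0.0840 in WT. Here too Del(CBS1-2) and Del(CBS1-4) lay above WT, and Del(CBS1-5) overlapped it from below. Skeletal to cardiac actin, Acta1 to Actc1, was 0.258, 0.250 and 0.250 in Del(CBS1-2), 0.691, 0.592 and 0.668 in Del(CBS1-4), 0.166, 0.187 and 0.237 in Del(CBS1-5), and 0.205, 0.637 and 0.295 in WT. WT library 2 was as high as Del(CBS1-4) and the rest of WT was not, so the actin ratio varied inside WT as much as between genotypes. Fast to slow troponin C, Tnnc2 to Tnnc1, was lower, at 0.336, 0.361 and 0.377 in Del(CBS1-2) and 0.400, 0.406 and 0.439 in WT. Fast to slow troponin I, Tnni2 to Tnni1, overlapped, at 0.166, 0.143 and 0.148 in Del(CBS1-2) and 0.165, 0.154 and 0.143 in WT. The fast forms therefore did not move as a block in Del(CBS1-2).

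**Figure D5:**
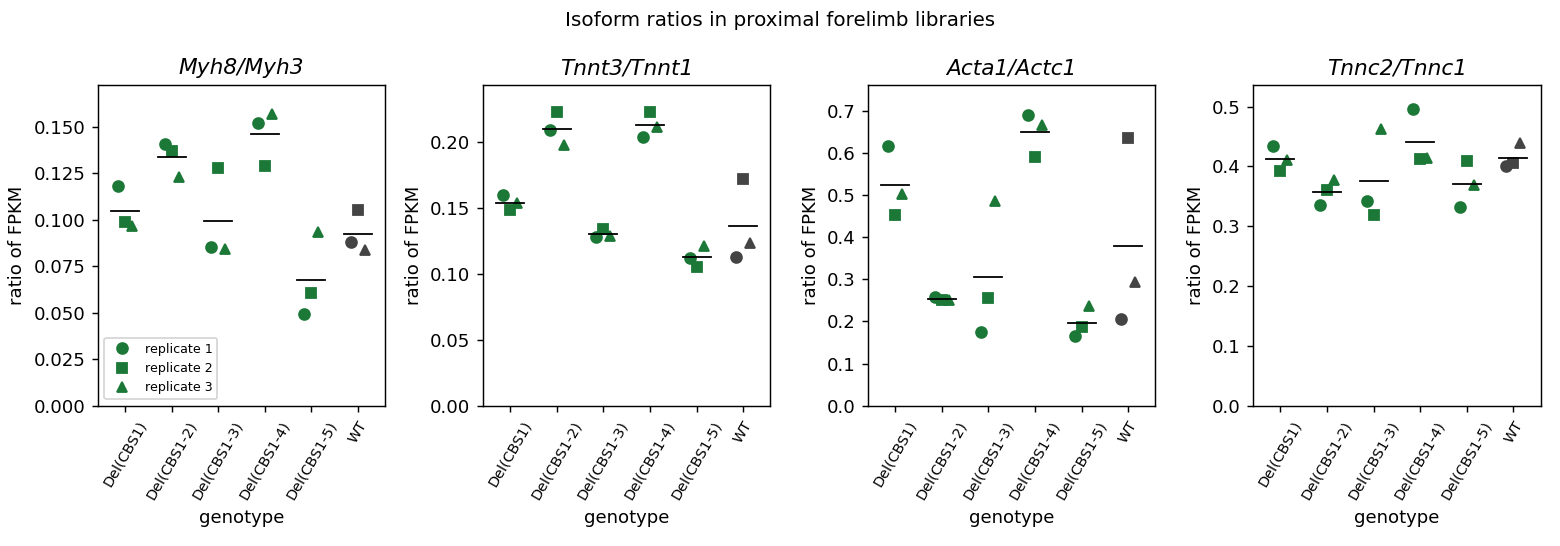
Ratios of FPKM within pairs of related muscle proteins in each proximal library, by genotype, with a symbol for each library and a bar for the mean. Tnnt3 to Tnnt1 and Myh8 to Myh3 lie above the WT range in Del(CBS1-2) and Del(CBS1-4), and Acta1 to Actc1 spreads widely inside WT.

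Other muscle genes, taken from lists chosen by function, were set beside the members. In distal against proximal WT forelimbs edgeR called 17.1% of all tested genes lower. Of the tested other contractile genes 21 of 25 were called lower, among them Tpm2 and Myom3. So were 17 of 21 other excitation and synapse genes, led by Rapsn, Hrc and Jph2, with 1 higher. Of the metabolic genes 7 of 7 tested were lower, led by Pygm, Pgam2 and Fabp3, and of the genes of muscle progenitors and commitment 15 of 17 were lower and 1 higher. Myog, the factor that starts differentiation, averaged 3.66 ± 0.605 CPM in distal and 171 ± 19.1 CPM in proximal WT forelimbs (SD, n = 3 each). Myod1, the commitment factor, averaged 3.82 ± 1.064 CPM in distal and 82.8 ± 14.2 CPM in proximal WT forelimbs (SD, n = 3 each). Pax7, a progenitor factor, averaged 0.0917 ± 0.104 and 19.8 ± 2.39 CPM, and Pax3, the factor of migrating precursors, 1.26 ± 0.620 and 3.83 ± 1.49 CPM, in the same order of tissues. Of these 4 factors Pax3 had the closest distal and proximal means.

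In distal Del(CBS1-2) forelimbs, where 10.5% of all tested genes were called, some genes of these lists were called. Of 15 other contractile genes tested, 3 rose by edgeR: Pdlim3, a Z-disc adaptor, by 1.12 ± 0.31 on the log2 scale (edgeR adjusted p = 0.0281), Tpm1, a tropomyosin, by 0.45 ± 0.12 (edgeR adjusted p = 0.0281), and Synpo2l, another Z-disc protein, by 1.16 ± 0.34 (edgeR adjusted p = 0.036). Of 17 progenitor and commitment genes, Pax7 and Myod1 rose and Six4 fell. Myod1 averaged 9.32 ± 1.52 CPM in distal Del(CBS1-2) and 3.82 ± 1.064 CPM in distal WT forelimbs (SD, n = 3 each). None of the 16 other excitation genes and 3 metabolic genes tested was called by edgeR, with 4 and 0 at an unadjusted p under 0.05. At that edgeR p 12.4% of all tested genes were higher. Lists of other tissues held calls in this comparison too, among them 2 of 11 tendon genes, 2 of 7 epidermis genes and 2 of 6 erythroid genes, and no difference between lists was tested. In proximal Del(CBS1-2) forelimbs edgeR called none of the 28 contractile, 21 excitation, 7 metabolic and 18 progenitor genes tested. At an unadjusted edgeR p under 0.05, 10, 7, 3 and 3 of them were higher, against 9.78% of all tested genes, and 3 progenitor genes were lower.

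Of the 40 members, 6 lie on chromosome 2, which also holds the HoxD cluster. Their distances from Hoxd13 are 1.11 Mb for Chrna1, 2.04 Mb for Ttn, 5.0 Mb for Klhl41, 22.53 Mb for Neb, 39.38 Mb for Actc1 and 90.11 Mb for Tnnc2. Chrna1 and Ttn, the nearest, were called in none of the 10 comparisons with WT. Chrna1 had 37.6, 38.1 and 42.6 CPM in proximal Del(CBS1-2) and 30.4, 34.7 and 29.7 CPM in proximal Del(CBS1-5) forelimbs, against 37.4, 28.6 and 34.0 CPM in proximal WT forelimbs. The Del(CBS1-2) values lay just above WT and the Del(CBS1-5) values within its range.

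Some members share sequence or position with other genes. In the GENCODE vM21 annotation 25 members shared no 50-base word with another gene, and 8 shared over 1% of theirs, led by Myh7 at 15.6% with Myh6, Myh8 at 12.1% with Myh2, and Myl1 at 11.7% with a pseudogene. No member shared exon bases with a gene on the same strand, but 15 overlapped a gene on the opposite strand, led by Tnnc2, with 74% of its exon bases under Ube2c. Whether counting used the strand is not given in the sources used here. Ube2c averaged 178 ± 11.4 CPM in distal and 124 ± 3.61 CPM in proximal WT forelimbs (SD, n = 3 each), while Tnnc2 averaged 0.332 ± 0.112 and 41.1 ± 0.688 CPM, so that few of the Ube2c reads were counted as Tnnc2. Values of Myh7 and Myh8 remain uncertain to the extent that reads were shared with their neighbours.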

How the data were processed

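Strand-specific polyA RNA-seq was measured in 36 forelimb samples. Per the submitters' processing notes, which give no roles, STAR 2.7.0 was used with bedtools 2.27.1, cutadapt 1.16 and Cufflinks 2.2.1 on mm10. The deposited count table holds whole-number counts per gene, not normalized, and the deposited FPKM table holds the authors' values per length and depth. Whether counting used the strand is not given in the sources used here.

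Counts were tested with edgeR 4.0.16 (R 4.3.3; filterByExpr, TMM, quasi-likelihood F test, Benjamini-Hochberg over all genes tested, adjusted p of 0.05), first tested on simulated data. Tissues were compared within a genotype, mutants with WT in 1 fit of 18 libraries per tissue, and the interaction in 1 fit of 36. DESeq2 1.42.0, limma 3.58.1 on log2(FPKM + 0.1), no filter, a replicate block and leaving out each library were alternatives. Library totals set the precision, and floors cover counting error only. Same-numbered distal and proximal libraries deviated together in all 6 genotypes (r of 0.162 to 0.503), so these numbers pair samples by the data, while the labels do not state it. No libraries were duplicates.

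Fold changes are given for up to 4 genes of smallest p per role between WT tissues, and for called genes, otherwise the 2 of smallest p, elsewhere. Levels per library are given for 10 chosen members and for genes so named. The members and lists were chosen with earlier results of these data known.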

Additional observations from a re-analysis of the deposited data

How the results depend on the processing

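Counts of called members between tissues stayed within 1.5 times under every alternative. With no filter on low counts, edgeR called more members against WT in distal forelimbs, 2 in Del(CBS1), 21 in Del(CBS1-2), 9 in Del(CBS1-4) and 3 in Del(CBS1-5), and in proximal forelimbs, 2, 29, 14, 16 and 10 from Del(CBS1) to Del(CBS1-5), and for the interaction, 4, 19, 2, 9 and 3. The cause was not tested, and the share of all genes called under each alternative is not given here. DESeq2 called 1 member in distal Del(CBS1-2), and in proximal forelimbs 6 in Del(CBS1-2), 1 in Del(CBS1-3) and 1 in Del(CBS1-4). Without 1 library, proximal Del(CBS1-2) and proximal Del(CBS1-4) gave 0 to 1 called members. The log2 fold change of Cacna1s in Del(CBS1) turned negative without distal Del(CBS1) library 2, and over all single libraries left out ran from -0.55 to 2.39 in distal forelimbs and from -0.54 to 2.37 in the interaction, and that of Xirp1 in the Del(CBS1-5) interaction turned to 0.017 with limma. Of 712 alternatives for named fold changes, 689 kept direction and side of the threshold, 4 lost a call and 16 gained one.

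With the replicate number as a block the number of called members between tissues was 39, 40, 39, 40 and 40 from Del(CBS1) to Del(CBS1-5) and 40 in WT, and 1 in proximal Del(CBS1-2), where Tnnt3 had 0.84 (edgeR adjusted p = 0.0374). It changed no call. Between mutant and WT the numbers did not pair libraries when all genotypes were pooled (r of -0.16 to 0.296, 10 of 30 libraries nearest to their own number). Del(CBS1-3) came closest to pairing. There 2 of 3 distal libraries (r of 0.0796 to 0.249) and 3 of 3 proximal ones (r of 0.099 to 0.296) were nearest to their own number. Distal counts limit precision, and 6 members could not be tested there against WT.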

Other observations

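Smpx, an X-linked gene of a small muscle protein of the costamere, is in the FPKM table and not in the count table used here. It averaged 0.653 ± 0.295 FPKM in distal and 4.12 ± 0.499 FPKM in proximal WT forelimbs (SD, n = 3 each). It had 7.29, 7.54 and 6.55 FPKM in proximal Del(CBS1-2) forelimbs, against 4.60, 4.17 and 3.60 FPKM in proximal WT forelimbs, with no overlap and no test. Fhl1, another X-linked muscle gene, which is made in many tissues, averaged 16.6 ± 0.452 FPKM in distal and 27.0 ± 3.00 FPKM in proximal WT forelimbs (SD, n = 3 each). Dmd, the X-linked dystrophin gene, did not share this order, at 4.64 ± 0.212 FPKM in distal and 4.40 ± 0.814 FPKM in proximal WT forelimbs (SD, n = 3 each).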
